A study of Mus musculus with 4 samples.

Results

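Principal cells of the collecting duct were examined in single-cell RNA libraries of mouse renal cortex. A cell was counted as a principal cell when Aqp2 and Fxyd4 together reached at least 30 CP10k, that is 30 unique molecular identifiers (UMIs, each marking 1 captured transcript) per 10000 UMIs of the cell, and were at least as high as Calb1 and S100g together. It also had to hold less than 3 CP10k of Slc12a3, less than 5 of Atp6v1g3 and less than 5 of Slc34a1, which mark the distal convoluted tubule, the intercalated cell and the proximal tubule. Of 32407 cells with at least 1000 detected genes and at most 50% mitochondrial UMIs, 1286 met the rule, a share of 3.97%.

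The study asked how age and loss of the transcription factor TFEB in the proximal tubule change the kidney. There were 4 conditions with 1 library each, and each library was made from the cortex of 2 or 3 male mice combined before digestion. Mice were 6 weeks (young) or 24 months (aged) old, and all of them carried floxed Tfeb alleles. Mice of the genotype Tfeb fl/fl had no Cre and are called controls here. Those of the genotype Tfeb fl/fl KAP, called KAP mice, also had a Cre under the androgen-regulated Kap promoter, active in S3 cells of the proximal tubule, so that principal cells were not the cells meant to lose Tfeb. With 1 pooled library per condition no condition has a replicate, and differences between conditions are given with an interval for counting error alone and without a p-value. Values of the 4 libraries stand in the order young control, young KAP, aged control and aged KAP.

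Principal cells are the more common of the main cell types of the collecting duct, beside the intercalated cells that handle acid and base. Vasopressin acts on the receptor Avpr2, and the cAMP that follows brings the water channel Aqp2 to the luminal membrane, while Aqp3 and Aqp4 let the water leave on the blood side. The same cells reabsorb sodium through the epithelial channel built from Scnn1a, Scnn1b and Scnn1g, and secrete potassium through Kcnj1. Aldosterone drives sodium uptake through its receptor Nr3c2, and Hsd11b2 protects that receptor by inactivating glucocorticoids. Upstream lies the connecting tubule, whose cells take up calcium with Calb1 and S100g and share part of the sodium machinery.

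Since Aqp2 and Fxyd4 chose the cells, the promoters of these genes are shown, as RefSeq gives them for GRCm38.p6, from 250 bases before to 50 bases after a start that RefSeq lists. For Fxyd4 this start lies inside the gene as GENCODE annotates it on the same build, from 117933559 to 117937692, so that its window lies within that gene. They were searched for the letters TGACGT, part of the site of the cAMP factor CREB, and AGATAA, the core of a GATA site, on both strands, and the matches are in capitals. The matches in Aqp2 lie on the opposite strand, so that they are printed as ACGTCA, 212 to 207 bases before the start, and TTATCT, 202 to 197 bases before it.
Aqp2, chr15:99578806-99579105, plus strand: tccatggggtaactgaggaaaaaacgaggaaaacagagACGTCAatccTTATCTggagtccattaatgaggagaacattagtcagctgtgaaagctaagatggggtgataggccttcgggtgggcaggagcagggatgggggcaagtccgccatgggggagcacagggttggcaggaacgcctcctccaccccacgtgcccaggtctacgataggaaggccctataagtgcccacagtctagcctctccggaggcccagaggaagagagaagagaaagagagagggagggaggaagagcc
Fxyd4, chr6:117937286-117937585, minus strand: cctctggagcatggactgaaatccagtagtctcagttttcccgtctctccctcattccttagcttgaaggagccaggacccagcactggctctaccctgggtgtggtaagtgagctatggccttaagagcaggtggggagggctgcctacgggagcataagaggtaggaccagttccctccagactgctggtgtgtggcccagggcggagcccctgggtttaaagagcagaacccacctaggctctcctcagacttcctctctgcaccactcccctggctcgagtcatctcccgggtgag
Of all 32851 RefSeq promoters of this length, 7.51% held TGACGT, 11.2% held AGATAA and 0.536% held both, as the Aqp2 promoter does. The Fxyd4 window held neither set of letters. Such a match describes the letters and does not show that a factor binds there.

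The libraries yielded 465 principal cells of 11016 filtered cells in young control, 375 of 8469 in young KAP, 139 of 5991 in aged control and 307 of 6931 in aged KAP. These are shares of 4.22% (exact 95% Clopper-Pearson interval 3.85 to 4.61), 4.43% (4.00 to 4.89), 2.32% (1.95 to 2.73) and 4.43% (3.96 to 4.94). The aged control library stood lowest, with an interval that does not overlap the other three, and the aged KAP library did not share that position. The intervals cover counting error only, and the yield of a cell type also depends on how the tissue was cut and digested. The median principal cell held 12538, 12455, 14272 and 12115 UMIs in the same order, and the class summed to 8359351, 6311181, 2653802 and 5021109 UMIs, so that levels in aged control rest on the fewest counts.

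Around the threshold few cells were in doubt. The lowest members stood at 30.3 CP10k or more of Aqp2 and Fxyd4, the highest cells outside at 29.0, 24.9, 24.0 and 11.9 CP10k, and the median members at 172, 186, 157 and 150 CP10k. A further 199, 151, 84 and 155 cells reached 30 CP10k but held more Calb1 and S100g, and 115, 65, 38 and 58 were left out for the other markers. Each library shared between 10 and 27 cell barcodes with any other, at most 0.390% of its cells.

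The label of the cells was checked against 5 markers, of which Aqp2 and Fxyd4 were used by the rule and are given as a description. Aqp2 stood at 9995, 10363, 9350 and 7837 CPM (UMIs of a gene scaled to equal library totals) of the summed principal cells, and Fxyd4, a subunit that modulates the sodium pump, at 7662, 8667, 6594 and 6825 CPM. Nuclear genes were ranked without those of ribosomal proteins. Among them, only the non-coding RNA Malat1, at a mean of 23272 CPM, and the actin-binding peptide gene Tmsb4x, at 14053 CPM, stood above Aqp2 and Fxyd4. Of the markers the rule did not use, Aqp3 was at 3970, 2839, 3818 and 2916 CPM, Hsd11b2 at 4890, 5376, 5595 and 5397 CPM, and Avpr2 at 409, 466, 423 and 390 CPM. At least 99.7% of principal cells in every library held a UMI of Aqp3 and of Hsd11b2, and between 94.1 and 95.7% held a UMI of Avpr2. Among proximal tubule cells, at a median depth of 16264 to 21676.5 UMIs, between 1.17 and 2.70% held a UMI of Avpr2. For Aqp3 that share was 25.9 to 34.3%, and for Hsd11b2 it was 3.94 to 32.2%. Hsd11b2 varied least from cell to cell, with a coefficient of variation of 29.2 to 33.1%, against 50.7 to 60.3% for Aqp2 and 58.2 to 79.0% for the much scarcer Avpr2.

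Markers of other cell types were present at low levels. The 8 connecting tubule markers summed to 1316, 948, 1972 and 1749 CPM, led by Calb1, where connecting tubule cells held between 73604 and 98095 CPM. Markers of the thick ascending limb summed to 589, 251, 327 and 473 CPM, led in each library by Umod, and 16, 4, 1 and 6 principal cells held Umod and Slc12a1 together at 10 CP10k or more. The 8 type A intercalated markers summed to 308, 170, 376 and 149 CPM, led by Aqp6, and the 12 proximal tubule markers to 298, 252, 349 and 279 CPM, led by Gpx3. Renin, Ren1, reached 299 CPM in aged control through 794 UMIs of 1 cell, and the haemoglobin gene Hbb-bs 327 CPM in aged KAP, also through 1 cell. Among the 6 inner medullary markers, Upk1b was at 0 in every library and the urea transporter Slc14a2 at 179, 178, 0 and 0 UMIs. That gene was at 0 in the connecting tubule cells of the aged libraries too.

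The background correction by the study differed between libraries, as 2.90% of the entries were kept at an explicit 0 in young control, 12.5% in young KAP, 9.41% in aged control and 12.9% in aged KAP. Umod, a urinary protein of the thick ascending limb, had a UMI in 40.9% of the principal cells and 32.1% of the proximal tubule cells of young control, and in 3.20 and 9.40% of those of young KAP. The aged principal cells had shares of 18.7% in control and 4.56% in KAP, and no share of the aged proximal tubule cells lay below 11.7%. The part of the correction in low levels of such genes was not tested.

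To find what sets principal cells apart from their upstream neighbours, they were compared with 1564 connecting tubule cells, chosen by the mirror image of the rule. Principal cells held far more of the basolateral water channel Aqp4, of the epithelial transcription factor Elf5 and of Lcn2, which encodes an iron-siderophore-binding defence protein, and far less of the kallikrein Klk1 and of the calcium exchanger Slc8a1. Counts were summed per library and class and compared with edgeR's quasi-likelihood test with the library as a block and Benjamini-Hochberg adjustment over all genes, leaving out the 7 genes of the rule. A gene was called at an adjusted p under 0.05 and a difference of at least 2-fold. Of 11758 genes, 857 were higher (7.29%) and 596 lower (5.07%) in principal cells, 12.4% in all, and the median log2 difference of all genes was -0.0034. The median mitochondrial share was 7.99, 6.07, 4.58 and 6.67% in principal cells but 21.5, 20.2, 12.9 and 14.6% in connecting tubule cells, and a limit of 20% in all cells left 1154 calls.

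**Figure D1:**
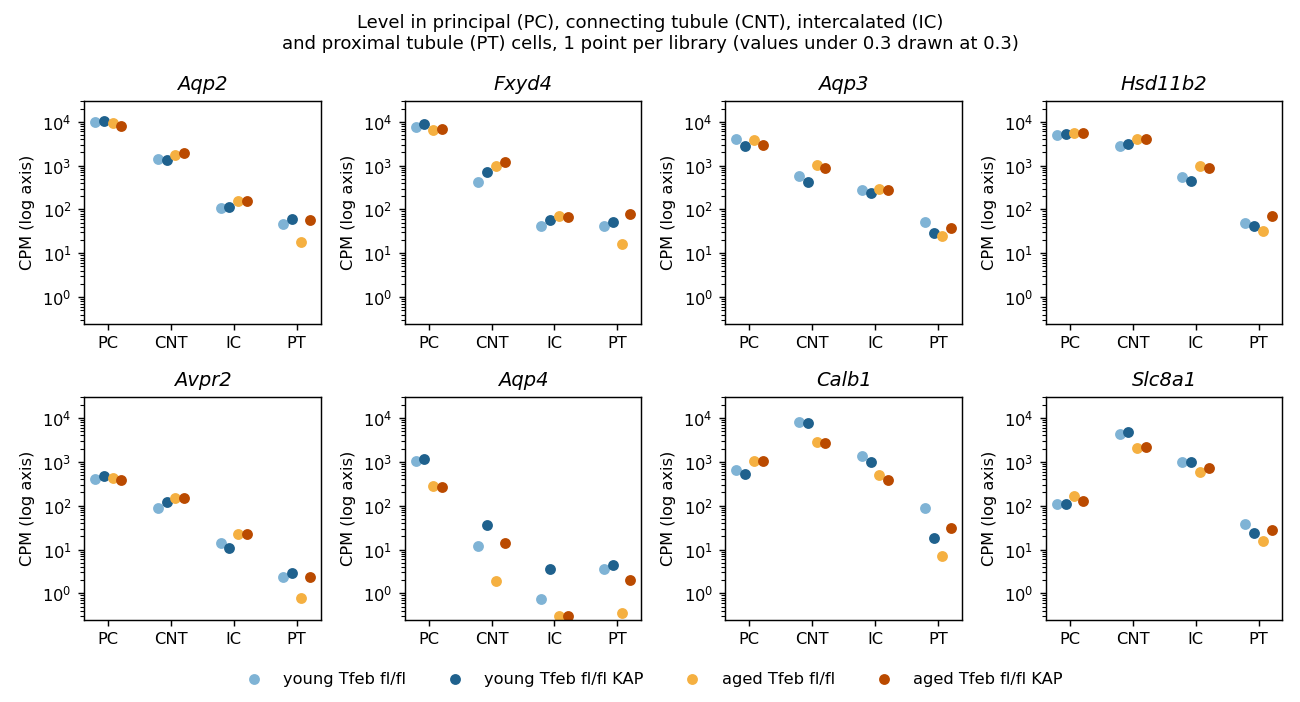
CPM (log axis) of 8 genes in the summed principal cells (PC), connecting tubule cells (CNT), intercalated cells (IC) and proximal tubule cells (PT), with 1 point per library and values under 0.3 drawn at 0.3. Aqp4 stood at 262 CPM or more in every principal cell sum and at 35.6 CPM or less in every connecting tubule sum, whereas the Hsd11b2 levels of the 2 classes lay close together.

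A few genes of water transport stood out against the connecting tubule. Aqp4 was at 1057, 1132, 278 and 262 CPM in principal cells and at 35.6 CPM or less in connecting tubule cells, a log2 difference of 5.06 ± 0.30 (SE, 4 libraries, adjusted p = 4.70e-08 by edgeR). The classes did not overlap, although the aged libraries held less Aqp4 than the young ones. Aqp3, the channel that works beside it, was at 421 to 1036 CPM in connecting tubule cells and higher in principal cells by 1.93 ± 0.14 on the log2 scale (adjusted p = 3.28e-07 by edgeR). The vasopressin receptor Avpr2 was at 88.6, 124, 152 and 151 CPM in connecting tubule cells and differed by 1.40 ± 0.14 (adjusted p = 3.62e-06 by edgeR). On a list of 21 tested genes of vasopressin signalling and water channels, 4 were called higher and 0 lower, beside 7.29% higher and 5.07% lower of all genes. The fourth was Aqp6, an intracellular channel of type A intercalated cells. The list's median log2 difference was 0.13, and the other genes on it, which include adenylyl cyclases, protein kinase A subunits and trafficking proteins, were not called.

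The sodium channel subunits and the potassium channel Kcnj1 were not called higher in principal cells. The channel subunits Scnn1a, Scnn1b and Scnn1g averaged 430, 503 and 337 CPM in principal cells and 317, 483 and 359 CPM in connecting tubule cells. After TMM scaling their log2 differences were 0.09 ± 0.08, -0.29 ± 0.11 and -0.44 ± 0.09, the last of which passed the test (adjusted p = 0.00191 by edgeR) without reaching 2-fold, and for Scnn1b the sign depended on the scaling. The potassium channel Kcnj1 averaged 571 and 558 CPM, but its log2 difference after that scaling was -0.31 ± 0.13 (adjusted p = 0.0628 by edgeR), so its sign depended on the scaling too. None of 7 potassium channel genes was called, which at 12.4% of all genes says little about so short a list. Of 15 tested genes of the sodium channel and pump list, 0 were called higher and 3 lower, beside 7.29% higher and 5.07% lower of all genes. Those called lower included the small pump subunit Fxyd2 by -6.20 and the kinase Wnk1 by -4.52. Fxyd2 averaged 72.1 CPM in principal and 3829 CPM in connecting tubule cells. The aldosterone receptor Nr3c2 averaged 75.1 and 62.9 CPM, with a log2 difference of -0.06 ± 0.07 after TMM scaling (adjusted p = 0.590 by edgeR), so its sign also depended on the scaling. Hsd11b2 differed by 0.29 ± 0.14 (adjusted p = 0.128 by edgeR).

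The regulators showed more contrast. Elf5 was at 128, 139, 61.0 and 54.0 CPM in principal cells and never above 2.22 CPM in connecting tubule cells, a log2 difference of 5.98 ± 0.17 (adjusted p = 3.83e-10 by edgeR), the largest increase among genes with a mean of at least 50 CPM in principal cells. Of 26 transcription factors of the collecting duct, 8 were called higher, among them Klf5 at 3.63, the homeobox genes Hoxb9 at 2.14 and Emx2 at 2.12 and Elf3 at 1.66. Hoxa7 and Emx1 were the 2 called lower, beside 7.29% higher and 5.07% lower of all genes. Gata3 was higher by 0.84 ± 0.13, under 2-fold, and Tfcp2l1, at a mean of 1435 CPM the most abundant of the list, by 0.26 ± 0.08. The ligands Wnt9b and Wnt7b differed by 5.61 ± 0.27 and 4.49 ± 0.27, with mean levels of 42.0 and 21.8 CPM in principal cells and under 1 CPM in connecting tubule cells. With Wnt4, Notch1, Notch3, Dll1, Tcf7l2 and Sox9 they made up the 8 of 17 tested genes of the Notch and Wnt list called higher. The targets Nrarp and Axin2 were the 2 called lower, beside the same shares of all genes.

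The tight junction gene Cldn4 and the keratins Krt8, Krt18 and Krt19 were among 5 of 19 junction and keratin genes called higher, with Krt18 at a mean of 630 against 223 CPM. On that list 1 gene, Cldn16, was called lower, beside 7.29% higher and 5.07% lower of all genes. Lcn2 was at 314, 250, 238 and 159 CPM in principal cells and 2.62, 8.51, 6.54 and 4.43 CPM in connecting tubule cells (log2 difference 5.18 ± 0.24, adjusted p = 7.39e-09 by edgeR). It was 1 of 10 genes called higher on the list of 19 tested injury and secreted defence genes, with Anxa1, Anxa2, Il34, Csf1 and Icam1. Spp1, Clu, Wfdc2 and Anxa3 were called lower, beside the same shares of all genes. The prostaglandin receptor Ptger1, which responds to PGE2, was higher by 2.66 ± 0.12 (mean 163 against 20.5 CPM), and Hpgd, which degrades prostaglandins, by 3.30 ± 0.22. With Ptger4 they were the 3 of 11 tested prostaglandin and endothelin genes called higher, while the PGE2 receptor Ptger3 and endothelin Edn1 were called lower. These counts stand beside the same shares of all genes, and the list's median was 0.04. Among the largest differences by fold were also Mgat4c, Dab1, Muc20, Adora1, Aldh1a1, Nipal1 and Defb29, each with a log2 difference between 4.30 and 5.52.

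**Figure D2:**
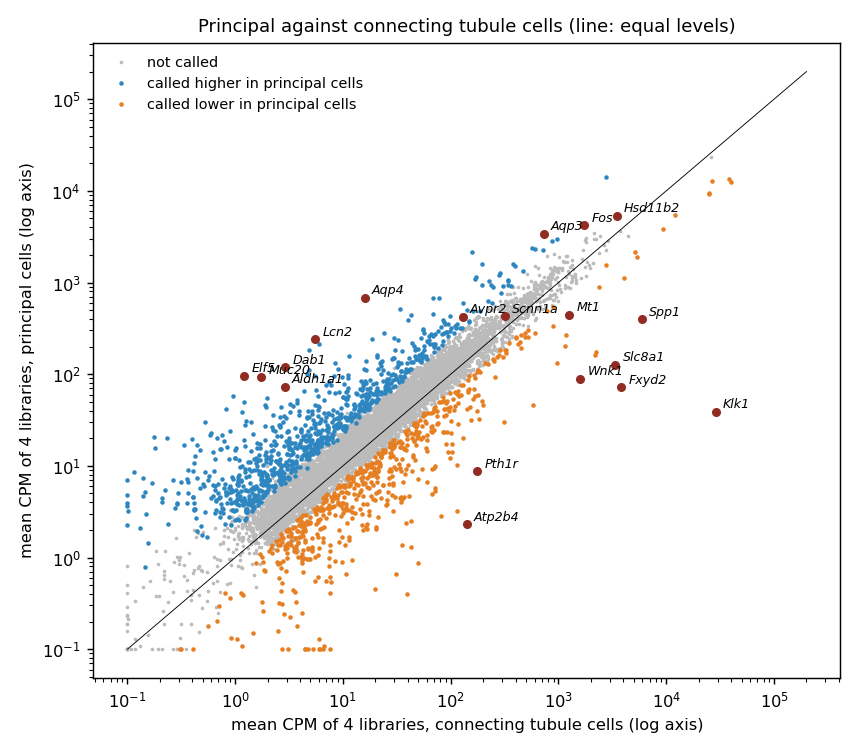
Mean CPM over 4 libraries in connecting tubule cells (horizontal, log axis) and principal cells (vertical, log axis), 1 point per gene, with the 857 genes called higher in principal cells in blue and the 596 called lower in orange; the lowest values are drawn at 0.1. Klk1 lies at 28645 against 39.2 CPM, while Aqp4 and Elf5 lie far above the diagonal.

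On the lower side, Klk1, a serine protease secreted into urine, was at 85.7, 28.0, 39.2 and 3.78 CPM in principal cells against 25895 to 33357 CPM, a log2 difference of -9.96 ± 0.70. Slc8a1, which exports calcium, was at 108, 108, 164 and 127 CPM against 2087 to 4745 CPM (-5.01 ± 0.30), and Atp2b4, a calcium pump, at 4.18 CPM or less against 91.5 CPM or more (-6.39 ± 0.28). The parathyroid hormone receptor Pth1r and Spp1, osteopontin, differed by -4.74 and -4.28. The remaining genes named by fold were Cyp2j11, Mymx, Aebp1, Abca13 and Ltc4s.

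Of 24 immediate early genes, 18 were called higher and 0 lower in principal cells, with Fos at a mean of 4206 against 1734 CPM and Egr1 at 2402 against 566 CPM. At a limit of 20% mitochondrial UMIs, 15 of these 24 genes were called higher. All 13 mitochondrially encoded subunits were lower (median log2 difference -1.84), of which 11 remained called at a limit of 20% mitochondrial UMIs. Of 76 nuclear subunits of oxidative phosphorylation 8 were called lower (median -0.63), and 2 at that limit. Of 14 heat shock genes 3 were called higher. Of all genes 7.29% were called higher and 5.07% lower. The glucose transporter Slc2a1 was higher by 1.21 ± 0.11, the metallothionein Mt1 lower by -1.91 ± 0.29, and of 42 lysosomal genes and MiT/TFE factors 1, Ctsh, was called.

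The number of interferon genes called depended in part on 1 library. Of 25 tested interferon response genes 16 were called higher and 1, Ifi27, lower, beside 7.29% higher and 5.07% lower of all genes. Their median log2 difference was 1.49. Without the aged control library 10 of 26 were called higher, with a median of 1.07. Isg15, a ubiquitin-like protein induced by interferon, was at 123 CPM in the principal cells of aged control and at 13.6 CPM or less in those of the other libraries, and 77.0% of its counts in aged control came from 1 cell.

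Intercalated cells lie beside principal cells in the same duct, and 917 of them, types A and B together, gave the second comparison. Aqp4, Dab1, Lcn2 and Elf5 were again among the genes with little or no signal in the neighbour. Scnn1b, Scnn1g and 5 of 7 potassium channel genes were now called higher as well. By the same test 1376 of 11758 genes were higher (11.7%) and 1159 lower (9.86%) in principal cells, 21.6% in all. The comparison shares its principal cell sums with the one above, so that the results stand side by side and do not support each other.

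The transport genes of the principal cell separated the types as follows. Avpr2 averaged 422 CPM in principal and 17.6 CPM in intercalated cells, a log2 difference of 4.31 ± 0.17 (adjusted p = 3.88e-10 by edgeR), Aqp3 differed by 3.36 ± 0.15 and Hsd11b2 by 2.66 ± 0.16. Scnn1b and Scnn1g averaged 132 and 79.0 CPM in intercalated cells and differed by 1.67 ± 0.11 and 1.82 ± 0.10. Scnn1a did so by 0.32 ± 0.08 with 281 CPM in intercalated cells, under the 2-fold limit. Of 7 potassium channel genes 5 were called higher, where 11.7% of all genes were. They were Kcnj1 by 1.89 ± 0.13, Kcnj10 by 1.18 ± 0.11, Kcnj16 by 1.46 ± 0.12, Kcnk1 by 1.64 ± 0.13 and Kcne1, a regulatory subunit, by 2.91 ± 0.13. Nr3c2 differed by 0.70 ± 0.08.

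The Notch receptor Notch2 averaged 65.4 CPM in principal and 8.47 CPM in intercalated cells (2.70 ± 0.13) and the Notch target Hes1 differed by 1.19 ± 0.08, whereas the ligand Jag1 was at 23.7 and 169 CPM (-3.14 ± 0.10). Of 17 tested Notch and Wnt genes, 5 were called higher and 4 lower, beside 11.7% higher and 9.86% lower of all genes. In the adult duct Notch signalling is known to keep the principal cell state, with ligands on intercalated cells. Whether it does so in these cells was not tested. Of 26 transcription factors 15 were called higher and 2 lower, the latter being Hoxa7 and the intercalated factor Foxi1, at 20.1 against 328 CPM (-4.41 ± 0.18). The lowest genes by fold included Slc26a4 (pendrin, the chloride and bicarbonate exchanger of type B cells), Insrr and Hmx2, each by more than 6.3 on the log2 scale, and Lsamp had no UMI in any principal cell sum. Of 76 nuclear oxidative phosphorylation subunits 29 were called lower and 0 higher (median -0.90), and of 42 lysosomal genes 2 were called higher and 8 lower, beside 11.7% higher and 9.86% lower of all genes. Of 24 immediate early genes 4 were called higher and 3 lower (median 0.41), beside the same shares. The median mitochondrial share of intercalated cells was 20.3, 18.2, 13.9 and 16.7%, above that of principal cells in each library, and at a limit of 20% 26 of the 76 subunits were called lower.

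Principal cells were not uniform along the border with the connecting tubule. Cells with 10 CP10k or more of Calb1 and S100g made up 127 of 465 principal cells (27.3%) in young control, 69 of 375 (18.4%) in young KAP, 69 of 139 (49.6%) in aged control and 158 of 307 (51.5%) in aged KAP. Both aged libraries stood above both young ones. The rule also used Calb1 and S100g to admit cells, so these shares only describe the cells it kept. Only 8, 2, 6 and 18 cells lay within 2-fold of the border with the connecting tubule. The threshold cuts a continuous range and does not mark a type. S100g, which was part of it, was at 191, 26.3, 408 and 321 CPM. Among proximal tubule cells, 12.5, 0.374, 0.636 and 0.712% held a UMI of S100g. For Calb1 these shares were 11.3, 0.661, 0.777 and 1.27%, so that young control stood highest for both genes. The part of background RNA and its correction in the principal cell values was not tested.

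The 2 ranges were compared within the 4 libraries by the same edgeR fit, leaving out Aqp2, Fxyd4, Calb1 and S100g. Of 10360 genes 21 were higher (0.203%) and 95 lower (0.917%) in the cells with Calb1 and S100g, 1.12% in all. Aqp4 was at 267, 245, 180 and 189 CPM in cells with these genes and at 1348, 1316, 386 and 330 CPM in cells without them, a log2 difference of -1.68 ± 0.22 (adjusted p = 0.00355 by edgeR). It was lower in 4 of 4 libraries, and the gap was narrower in the aged ones. Elf5 differed by -1.51 ± 0.21, Lcn2 by -1.76 ± 0.24, Klf5 by -1.35 ± 0.15, Wnt7b by -1.17 ± 0.26 and Wnt9b by -1.07 ± 0.14, all of them genes that were called higher against the connecting tubule. Aqp3, Hsd11b2 and Avpr2 differed by -0.22 ± 0.11, 0.11 ± 0.08 and -0.27 ± 0.13 (adjusted p of 0.342, 0.543 and 0.340 by edgeR), and Scnn1b by 0.47 ± 0.12 (0.0511).

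**Figure D3:**
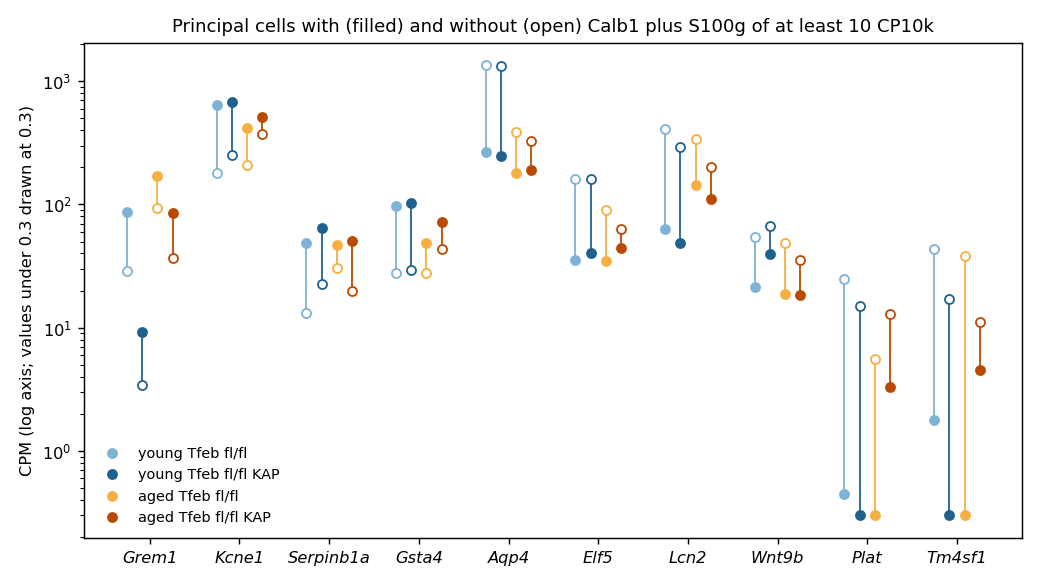
CPM (log axis) of 10 genes in principal cells with 10 CP10k or more of Calb1 and S100g (filled) and below it (open), 1 pair of points per library, with values under 0.3 drawn at 0.3. Kcne1 is higher and Aqp4 lower with Calb1 and S100g in each of the 4 libraries.

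Higher in the cells with Calb1 and S100g were Kcne1 (mean 561 against 253 CPM, 1.21 ± 0.17), the BMP antagonist Grem1 (88.0 against 40.6 CPM, 1.26 ± 0.13), Serpinb1a, Gsta4, Tmem52b, Hhatl, Acss3, Depdc7, Defb2 and the sodium-proton exchanger Slc9a4. Grem1 was at 9.25 CPM or less in either range of young KAP and at 28.6 CPM or more in the other libraries. On the lower side the largest folds belonged to Tm4sf1 (-3.64), the plasminogen activator gene Plat (-3.59), the urokinase receptor Plaur (-2.50) and to Umod, Slc12a1 and Egf of the thick ascending limb. The part in this of the few cells that hold Umod and Slc12a1 at 10 CP10k or more was not tested. The count of calls was sensitive to the libraries, with 25 calls without young KAP, 42 without young control, 152 without aged control and 224 without aged KAP.

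Age was compared in each genotype, aged control with young control and aged KAP with young KAP, which share no library. In both, aged principal cells held less Aqp4, less of the BMP target Id1 and of Elf5, and more Calca, which encodes calcitonin and its gene-related peptide, more Scg5, more Stc1 and more metallothionein mRNA. Of genes with a mean of at least 20 CPM, 122 of 6559 (1.86%) differed at least 2-fold with age in control mice with an exact 95% binomial interval that left out 0, 90 higher (1.37%) and 32 lower (0.488%). In KAP mice 107 of 6485 (1.65%) did so, 50 higher (0.771%) and 57 lower (0.879%). Among KAP cells with 10 CP10k or more of Calb1 and S100g, which were 18.4% of the young and 51.5% of the aged principal cells, 104 were higher and 27 lower, of which 37 were also past the fold in all principal cells, and thinning to 2000 UMIs gave 157 and 116. The median log2 ratio of all these genes was 0.11 and 0.03, and TMM scaling shifted it to -0.07 and -0.05, with 60 higher and 57 lower in control mice. At 1.5-fold in the same direction in both genotypes, 162 of 6526 genes (2.48%) passed, 113 higher (1.73%) and 49 lower (0.751%), against 72 higher and 102 lower after TMM scaling. The split between higher and lower genes therefore depended on the scaling and on the cells used, whereas the genes past 1.5-fold in both that are named here kept their direction under TMM scaling. In cells with 10 CP10k or more of Calb1 and S100g, Ranbp3l turned direction in both genotypes and Elf5 in KAP mice.

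**Figure D4:**
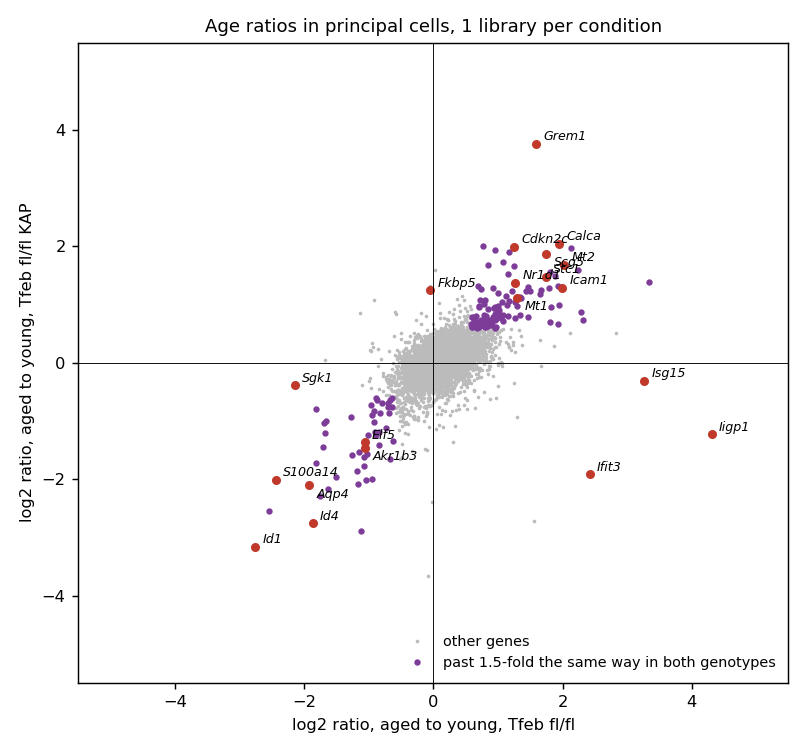
Log2 ratio of aged to young CPM in principal cells of control (horizontal) and KAP (vertical) mice, 1 point per gene for 6526 genes, of which 7 lie outside the axes or have no ratio. The 162 genes past 1.5-fold in the same direction in both are purple; Id1, Aqp4 and S100a14 lie at the lower left and Calca, Scg5 and Grem1 at the upper right.

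Aqp4 was at 1057 and 1132 CPM in the young and 278 and 262 CPM in the aged libraries, log2 ratios of -1.93 (95% interval -2.04 to -1.82) in control mice and -2.11 (-2.19 to -2.02) in KAP mice. A UMI of it was found in 87.3 and 86.7% of young and 63.3 and 59.9% of aged principal cells, and in 60.6, 61.6, 30.9 and 28.7% once each cell was thinned to 2000 UMIs. The share among proximal tubule cells was at most 1.35%. The ratio differed between the ranges of Calb1 and S100g: within the cells below 10 CP10k it was -1.81 in control mice and lower than that in KAP mice, and within those above it -0.57 and -0.37. Elf5 was at 128 and 139 CPM in the young and 61.0 and 54.0 CPM in the aged libraries (-1.07 and -1.37), and in the cells above 10 CP10k its ratios were -0.02 and 0.13. Aqp2 itself had ratios of -0.10 and -0.40, Aqp3 of -0.06 and 0.04, Avpr2 of 0.05 and -0.26, and Hsd11b2 of 0.19 and 0.01. Of the vasopressin and water channel list, 1 of 21 tested genes, Aqp4, passed 1.5-fold in both genotypes, where 2.48% of all genes did.

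The sodium channel subunits stood under 1.5-fold with age. Scnn1a had log2 ratios of 0.15 and 0.15, Scnn1b of 0.46 and 0.43 and Scnn1g of 0.41 and 0.50. Fxyd2, which passed 1.5-fold as lower in both genotypes, was at 150, 49.8, 62.2 and 26.1 CPM, ratios of -1.28 and -0.93. The 6 tested potassium channel genes had medians of 0.23 and 0.27 and the 15 junction and keratin genes of -0.04 and -0.07, with none past 2-fold, beside 1.86 and 1.65% of all genes. Sgk1, the kinase induced by aldosterone and glucocorticoids, was at 510, 461, 115 and 352 CPM, a ratio of -2.15 (-2.32 to -1.98) in control mice and -0.39 (-0.48 to -0.31) in KAP mice. Only aged control stood apart, and the difference between the genotypes was not tested.

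Other genes were lower in both aged libraries. Id1 was at 206, 210, 30.5 and 23.5 CPM, with log2 ratios of -2.76 (-3.10 to -2.44) and -3.16 (-3.44 to -2.89), and Id4, its relative, at 125, 127, 34.3 and 18.7 CPM. In connecting tubule cells Id1 was at 47.1, 18.0, 29.9 and 23.4 CPM, where the ages overlapped. S100a14 was at 79.7, 109, 14.7 and 26.9 CPM, and Akr1b3, the aldose reductase that makes the osmolyte sorbitol, at 165, 151, 79.1 and 54.8 CPM. With the heat shock gene Hspa1b, at 447, 563, 270 and 259 CPM, Akr1b3 was 1 of 2 among 7 tested osmolyte and tonicity genes past 1.5-fold in both, where 0.751% of all genes were lower. Ranbp3l was at 231, 209, 74.2 and 46.6 CPM, but in the cells with Calb1 and S100g its ratios were 0.47 and 1.24, the opposite direction. Itm2a, Ccn1, Dusp5, Fxyd2 and Gstm1 completed the set.

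Of the genes higher with age, Calca was at 22.3, 23.9, 85.5 and 98.8 CPM, log2 ratios of 1.94 (1.66 to 2.23) and 2.05 (1.78 to 2.32), and a UMI was found in 26.2, 23.2, 58.3 and 56.0% of principal cells against at most 1.98% of proximal tubule cells. Scg5, a chaperone of neuroendocrine secretion, was at 51.0, 33.9, 171 and 124 CPM (1.75 and 1.87). It was also higher in the aged intercalated cells, at 328 and 229 against 65.0 and 51.6 CPM. Stc1, a secreted hormone of calcium and phosphate handling, was at 123, 120, 411 and 336 CPM, and in connecting tubule cells at 72.4, 65.4, 412 and 241 CPM. Grem1 was at 44.4, 4.44, 133 and 60.1 CPM, with ratios of 1.59 in control mice and 3.76 in KAP mice, the latter against a low young KAP library. The carbonic anhydrase Car15 was at 1334, 1092, 2973 and 3129 CPM, whereas connecting tubule cells stayed between 116 and 203 CPM.

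Further genes higher with age were Tbck at 223, 241, 778 and 716 CPM, the adhesion molecule Icam1 at 30.0, 33.9, 119 and 83.0 CPM, the clock repressor Nr1d1 at 50.6, 42.3, 122 and 109 CPM and the cyclin-dependent kinase inhibitor Cdkn2c at 36.1, 21.2, 85.9 and 84.2 CPM. Cavin2, Gpc3 and Slc25a30 completed them. The metallothionein Mt1 was at 233, 306, 574 and 664 CPM (1.30 and 1.12) and Mt2 had ratios of 2.02 and 1.68. In connecting tubule cells Mt1 was at 1347, 1478, 1193 and 1022 CPM, lower in the aged libraries. Of 26 transcription factors of the duct, 25 were tested in both genotypes and 2 passed 1.5-fold as higher, Tfap2b and Emx1, and 3 as lower, Elf5, Klf4 and Klf5, beside 1.73% higher and 0.751% lower of all genes. Of 12 tested cell cycle inhibitor and senescence genes, Cdkn2c was the 1 higher and Gdf15 the 1 lower, too few to read against those shares, and Cdkn1a was at 29.8, 29.2, 18.8 and 22.3 CPM.

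**Figure D5:**
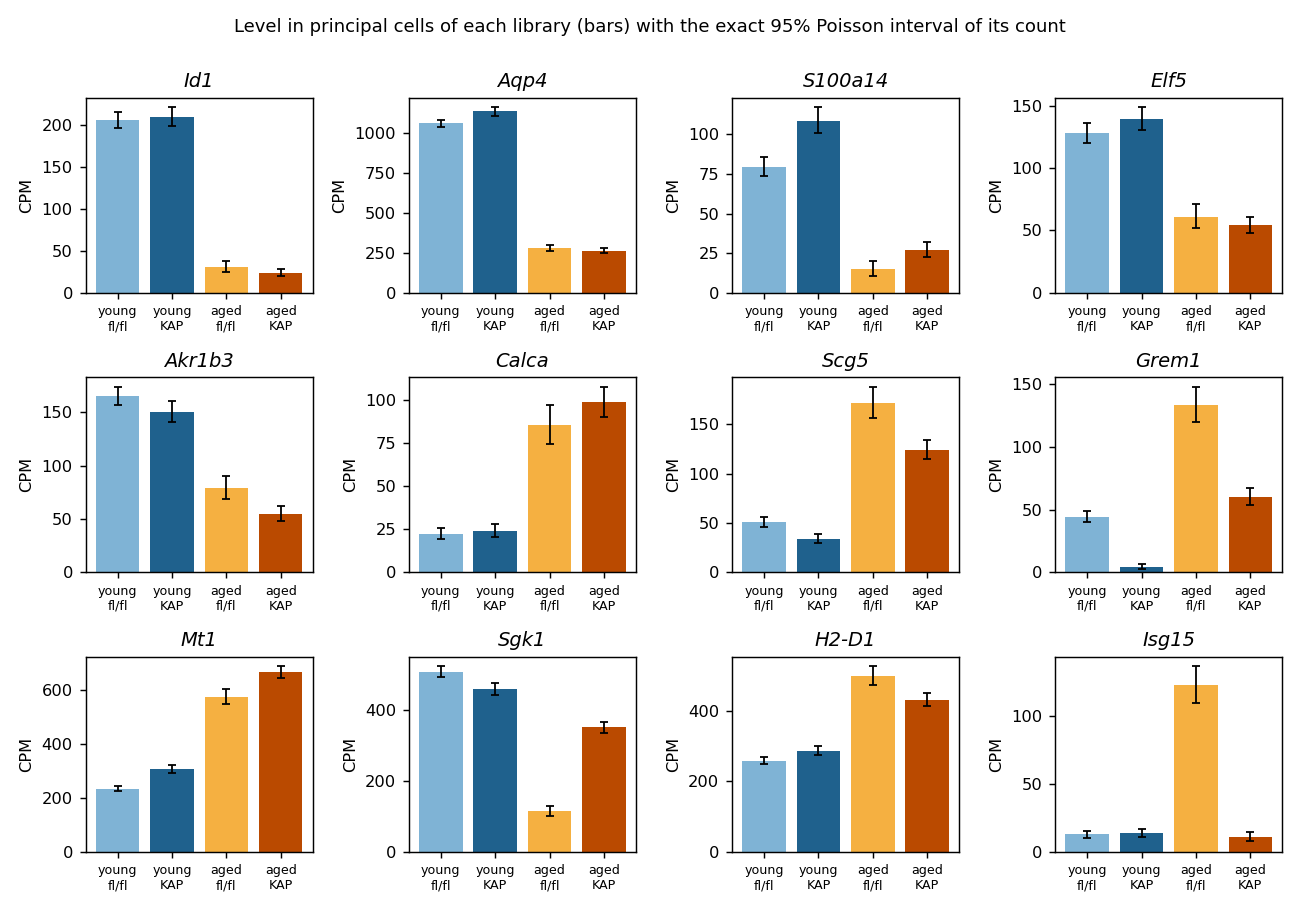
CPM of 12 genes in the summed principal cells of each library (bars from 0), with exact 95% Poisson intervals of the counts as error bars, which cover counting error only. Id1, Aqp4, S100a14, Elf5 and Akr1b3 are lower and Calca, Scg5 and Mt1 higher in both aged libraries. Sgk1 and Isg15 stand apart in aged control alone, where most of the Isg15 counts came from a single cell.

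Genes of antigen presentation and interferon response were highest in aged control. B2m, the light chain of class I molecules, was at 89.8, 90.6, 248 and 156 CPM (1.47 and 0.78), and H2-D1, a heavy chain, at 259, 287, 500 and 432 CPM (0.95 and 0.59). Psmb8 and Psmb9, subunits of the immunoproteasome, were at 15.4, 17.7, 75.4 and 32.7 CPM and at 11.2, 8.87, 38.8 and 21.5 CPM. Of 20 antigen presentation genes, 10 or 11 reached a mean of 20 CPM in the comparisons that hold aged control and 8 or 7 in those that do not. Of 28 interferon response genes, 19 reached a mean of 20 CPM in the comparisons that hold aged control and 8 or 7 in those that do not, so that members of both lists passed only through the library where they were high. Counts over the genes that passed are therefore not given as a result. The summed level of all 28 genes was 587, 611, 2054 and 731 CPM, and 1 cell of 46273 UMIs held 31.8% of those counts in aged control. Without the cell richest in these counts in each library, the sum was 509, 583, 1425 and 706 CPM. Summed markers of macrophages were at most 32.7 CPM and of lymphocytes at most 12.2 CPM in any library.

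Dbp, a clock output gene, was at 5.98, 8.56, 60.3 and 22.3 CPM and Nr1d2 at 12.3, 14.4, 43.0 and 23.5 CPM, so that their level was highest in aged control. Of the clock list 9 genes were tested in the age comparison of control mice but 7 in that of KAP mice, and no count over them is given. Per1 was at 43.4, 37.9, 38.1 and 30.1 CPM. Mitochondrially encoded subunits had a median ratio of -0.75 in control mice and 0.23 in KAP mice, summing to 86975, 67230, 52321 and 74925 CPM, a difference between the genotypes that was not tested. The 76 nuclear subunits had medians of -0.06 and 0.05.

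The last comparison asked whether principal cells differed between KAP and control mice, although their own Tfeb was not the target. Few genes did. Tfeb was at 23.1, 25.8, 29.0 and 35.6 CPM in principal cells, in the order young control, young KAP, aged control and aged KAP, with no lower level in the KAP libraries. In proximal tubule cells it was at 7.87, 6.95, 6.88 and 4.32 CPM, and whether the 3′ tags lie outside the deleted exons was not analysed here, so that these counts do not check the deletion. Kap, the gene whose promoter drives the Cre, was at 36681 CPM or more in the proximal tubule cells of every library but had a UMI in only 7, 0, 1 and 1 principal cells.

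Between genotypes 29 of 6344 genes (0.457%) differed at least 2-fold in young mice, 8 higher (0.126%) and 21 lower (0.331%) in KAP, and 60 of 6719 (0.893%) in aged mice, 11 higher (0.164%) and 49 lower (0.729%). In young mice the direction of the split was not stable, with 67 higher and 46 lower once each cell was thinned to 2000 UMIs, and 25 and 27 in cells with 10 CP10k or more of Calb1 and S100g. In aged mice the number moved, to 8 higher and 25 lower without the top cell of each gene, 51 and 149 with thinned cells and 14 and 100 in cells below 10 CP10k of Calb1 and S100g. The 29 genes of the young comparison included Kap, Hbb-bs, Acta2 and Tagln, genes of other cell types. At both ages 0 genes passed 1.5-fold as higher and 19 of 6526 (0.291%) as lower in KAP. Those above a mean of 50 CPM included Gm42418, an RNA with ribosomal sequence, at 1655, 525, 1596 and 345 CPM, Fxyd2 at 150, 49.8, 62.2 and 26.1 CPM, Aqp6 at 96.2, 41.7, 87.0 and 31.3 CPM, and Grem1. A UMI of Gm42418 was found in 99.6, 7.47, 75.5 and 7.17% of principal cells. The entries kept at an explicit 0 in these libraries made up 2.90, 12.5, 9.41 and 12.9%. Aqp6 and Fxyd2 belong to intercalated cells and to other tubule segments. The part of the correction in these differences was not tested.

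In aged mice the interferon response genes summed to 2054 CPM in control and 731 CPM in KAP, and to 1425 and 706 CPM without the cell richest in these counts. Iigp1, an interferon-induced GTPase, was at 142 CPM in aged control and at 8.40 CPM or less in the other libraries. This comparison shares its aged libraries with the age comparisons, so that it restates the high level of aged control. Lysosomal genes, many of them known targets of TFEB, had medians over 33 tested in young and 36 in aged mice of 0.05 and -0.03 beside 0.02 and -0.06 for all genes. None passed 2-fold, which at 0.457 and 0.893% of all genes says little about so short a list. In aged mice 71 of 76 nuclear subunits of oxidative phosphorylation had a ratio above 0 (median 0.17) and so had 12 of 12 tested mitochondrially encoded ones (median 0.53), whereas in young mice 45 of 76 and 0 of 12 did (medians 0.05 and -0.40). Of all genes 2561 of 6719 had a ratio above 0 in aged mice and 3511 of 6344 in young mice.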

How the data were processed

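Cortex of male mice was digested and 1 library per condition was made with the 10x 3′ chemistry. Reads were processed by the authors in Cell Ranger 6.0.0 and Seurat 4.4.0, and the deposited values are UMI counts corrected for background RNA with SoupX, as whole numbers per gene and cell, and the submitters' processing notes name the build mm10. Library totals were 194747936, 155327520, 125729484 and 135792884 UMIs. Corrected counts were used as deposited. Low counts depend on that correction.

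Cells were kept at 1000 or more detected genes and at most 50% mitochondrial UMIs, and classes were set by marker levels per 10000 UMIs. Doublets were not removed in the values given; Scrublet in Scanpy 1.11.5 was run as an alternative and marked 27, 15, 2 and 7 principal cells. Counts were summed per library and class. Classes were compared with edgeR 4.0.16 (TMM scaling, quasi-likelihood test, library as a block) in R 4.3.3, with DESeq2 1.42.0 as an alternative, and the scripts were tested on simulated data. In these fits the 4 libraries serve as blocks, and the p-values weigh a class difference against its variation from library to library. The libraries differ in age and genotype, so that this variation may hold effects of both. It does not measure a spread between mice. Conditions were compared by the ratio of CPM with exact binomial 95% intervals, which cover counting error only. Genes were named from the gene lists and markers, or as those with the largest fold past the threshold at a mean of at least 50 CPM. The members, lists and tests were chosen with earlier results of these data known. Promoters came from RefSeq (GRCm38.p6). A few genes are not reported here.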

Additional observations from a re-analysis of the deposited data

Results flagged for a closer look

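For 6 of 412 genes with reported values (1.46%), the ratio of aged to young counts passed 1.5-fold in opposite directions in control and KAP mice. With 1 library per condition the difference between the genotypes was not tested. Slc12a1, the sodium-potassium-chloride transporter of the thick ascending limb, had a log2 ratio of -0.92 in control and 1.07 in KAP mice, and Umod of the same segment -1.14 and 0.86. In aged control 1 cell held 99.3% of the Slc12a1 and 84.1% of the Umod counts. Acsm2, a proximal tubule gene, had ratios of 1.55 and -2.72. The interferon-induced genes Iigp1, Ifit3 and Ifit1 had ratios of 4.31 and -1.23, 2.42 and -1.91, and 1.30 and -0.93. In aged control 1 cell held 22.2% of the Iigp1, 78.8% of the Ifit3 and 58.9% of the Ifit1 counts.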

How the results depend on the processing

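Of the alternatives to counts and shares 105 stayed within the limits set for them and 31 moved; of those to list medians 945 stayed and 91 moved. Between classes, 645 alternatives for named genes kept their call, 32 lost it and 0 turned direction. Across conditions 611 stayed, 140 moved and 3 turned direction, all in cells with 10 CP10k or more of Calb1 and S100g: Ranbp3l with age, at 0.47 in control and 1.24 in KAP mice, and Elf5 at 0.13 in KAP mice. A limit of 20% mitochondrial UMIs gave principal cell shares of 7.62, 7.98, 4.20 and 7.08%. Thinning each cell to 2000 UMIs gave 401 and 273 genes past the fold with age in control and KAP mice, and 113 and 200 between genotypes in young and aged mice. A minimum mean of 10 CPM gave 248, 189, 46 and 113 genes in the same order, 275 with age in both genotypes and 30 between genotypes at both ages; a minimum of 50 CPM gave 55, 53, 13 and 22, and 63 and 5. Cells below 10 CP10k of Calb1 and S100g gave 200 genes with age in control mice, 114 between genotypes in aged mice and 29 at both ages, and cells above it 212 with age in control mice and 52 between genotypes in young mice. Leaving out the top cell of each gene gave 33 genes between genotypes in aged mice. For cells with against without Calb1 and S100g, DESeq2 called 63 genes, the fit without a filter on low counts 284, and leaving out 1 library gave 25 to 224. The cause of these shifts was not tested, beyond the fewer or more genes tested under each minimum. Between conditions no paired analysis was run, as each condition has 1 library and the labels carry no replicate number shared between conditions. Aged control rests on the fewest cells, 139, so that its low counts are the least precise.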
